A study of Homo sapiens with 60 samples.

Results

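A group of 9 genes that start, restrain or undo blood clotting was followed through SW1783 cells, an established human astrocytoma line, after 24 h with plant extracts. They were THBD, PROCR, F3, TFPI, TFPI2, PLAT, PLAU, PLAUR and SERPINE2, 9 of 18578 genes tested and of 60675 gene identifiers counted. The group was chosen by the high-dose levels of THBD, which was among the largest rises for several extracts, and the genes were then taken by name. THBD stood highest at high doses, so its levels there are given as values without a test. Its tests at the medium doses are given as description, while the other 8 genes were tested at every dose.

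The cells were given ethanol extracts of 4 single herbs (Polygalae Radix, Aucklandiae Radix, Menthae Herba and Saposhnikoviae Radix) or of 4 traditional formulas of several herbs (Guibi-tang, Saengmaek-san, Okbyeongpung-san and Soyo-san). Polygalae Radix was given at 1.2, 6 and 30 µg/mL (low, medium and high), Aucklandiae Radix at 6.4, 32 and 160 µg/mL, and the other 6 extracts at 20, 100 and 500 µg/mL. There were 2 libraries at each dose of Soyo-san, Aucklandiae Radix and Polygalae Radix, 3 at each dose of Guibi-tang, Saengmaek-san, Saposhnikoviae Radix and Menthae Herba, and 1 at each dose of Okbyeongpung-san, whose values are given without a test. Vehicle, DMSO alone, had 3 libraries that served every extract. All cells came from the same line and carried no engineered change named in the labels, and the labels do not say whether replicates were separate cultures, so p-values may measure technical spread only.

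Clotting begins when tissue factor (F3) binds factor VII, and tissue factor pathway inhibitor (TFPI) blocks that complex. Thrombomodulin (THBD) holds thrombin at the cell surface and turns it from a clotting enzyme into an activator of protein C, which the endothelial protein C receptor (PROCR) presents to it. Plasmin dissolves clots and matrix after plasminogen is cut by tissue-type (PLAT) or urokinase-type (PLAU) activator, the second of which is held at the cell surface by its receptor PLAUR. SERPINE2, also called protease nexin, inhibits thrombin and plasminogen activators and is known from glia, and TFPI2 inhibits plasmin and related proteases in the matrix. Tissue factor and the urokinase system are well known from glioma cells.

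The libraries held 19031094 to 37686975 expected counts each, those of vehicle 25186538 to 26477754. Library names fell into sets, with vehicle in a set of its own, so an extract effect and a set effect cannot be told apart in comparisons with vehicle, whereas high and low doses of an extract shared a set. In 4 libraries signal from long transcripts was low, by the slope of log2 level minus its vehicle mean on log2 transcript length. The slope was -0.303 in Saposhnikoviae Radix high replicate 2 and -0.267 in Okbyeongpung-san high. It was -0.227 in Menthae Herba high replicate 3 and -0.216 in Saposhnikoviae Radix low replicate 3. Vehicle libraries, whose mean is the reference, had slopes of -0.0212 to 0.0195. Of 13 listed astrocyte and glioma markers, 6 had a mean of 1 CPM or more. In vehicle VIM averaged 5220 CPM, CD44 2891 CPM, EGFR 356 CPM, SOX9 86.3 CPM, SLC1A3 32.6 CPM and NES 7.63 CPM. GFAP, S100B, AQP4, SLC1A2, ALDH1L1, SOX2 and OLIG2 reached at most 0.649 CPM in any library. Cell-type markers of endothelium, where thrombomodulin is classically described, were near 0 for CDH5, CLDN5, VWF, ERG and EMCN (at most 0.385 CPM), and 3 of the 12 listed markers had a mean of 1 CPM or more, KDR, EGFL7 and TEK. KDR averaged 22.3 CPM in Aucklandiae Radix high and 27.2 CPM in Guibi-tang high libraries, against 36.9 CPM in vehicle, and EGFL7 averaged 14.8 and 9.41 CPM in those 2 groups, against 9.09 CPM in vehicle. The 12 markers summed to 28.9 to 60.4 CPM at the high doses and 49.0 to 51.4 CPM in vehicle, a sum that hides such opposite differences. Because whole cultures were sequenced, fewer cells of a type and less RNA per cell cannot be told apart.

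In vehicle cells the 9 genes covered a wide range of levels per transcript length. SERPINE2 stood highest at 488 CPM per kb of median transcript length and PLAT next at 157 CPM per kb. PLAU had 111 CPM per kb, and PLAUR, F3, TFPI2, PROCR and TFPI lay between 65.4 and 89.0 CPM per kb. THBD stood far below them at 2.23 CPM per kb. The median was taken over all annotated transcripts, 1 of 4109 bases for THBD but 16 with a median of 727.5 bases for PLAUR. The divisors are therefore not like for like. By CPM alone THBD had 9.16 in vehicle, and the other genes 48.0 to 660. All 9 passed the filter on low counts, and the lowest count of any of them in any library was 114, for THBD. In GRCh38 with GENCODE release 29, THBD lies at chr20:23045633-23049741 on the minus strand and PROCR at chr20:35172073-35216240 on the plus strand. F3 lies at chr1:94529225-94541800, TFPI at chr2:187464230-187565760, TFPI2 at chr7:93885396-93890991, PLAUR at chr19:43646095-43670547 and SERPINE2 at chr2:223975112-224039319, all on the minus strand, and PLAU at chr10:73909177-73917497 on the plus strand.

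Thrombomodulin was highest in cells given Aucklandiae Radix or Guibi-tang at the high dose. THBD had 137 and 108 CPM in Aucklandiae Radix high libraries, against 8.44, 8.48 and 10.6 CPM in vehicle libraries, a log2 fold change of 3.74. With Guibi-tang high it had 92.3, 94.1 and 91.4 CPM, a log2 fold change of 3.34 over vehicle. Saengmaek-san high came next with 22.5, 27.6 and 26.5 CPM and a log2 fold change of 1.48. These 3 groups overlapped neither each other nor any other group.

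The remaining extracts lay close together at their high doses. THBD had 16.9 and 13.3 CPM in Polygalae Radix high libraries, 14.9 CPM in the Okbyeongpung-san high library and 13.4 CPM in both Soyo-san high libraries. Menthae Herba high gave 13.8, 12.3 and 10.2 CPM, and its lowest library lay inside the vehicle range. Saposhnikoviae Radix high gave 12.6, 5.47 and 13.0 CPM, where the low value came from the length-tilted replicate 2. The log2 fold changes over vehicle were 0.73 for Polygalae Radix, 0.55 for Soyo-san, 0.40 for Menthae Herba and 0.19 for Saposhnikoviae Radix. Over the alternative fits they ran from 0.35 to 0.88 for Polygalae Radix, 0.49 to 0.66 for Soyo-san, 0.30 to 0.70 for Menthae Herba and -0.001 to 0.49 for Saposhnikoviae Radix, the lowest of these without Saposhnikoviae Radix high replicate 3.

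**Figure D1:**
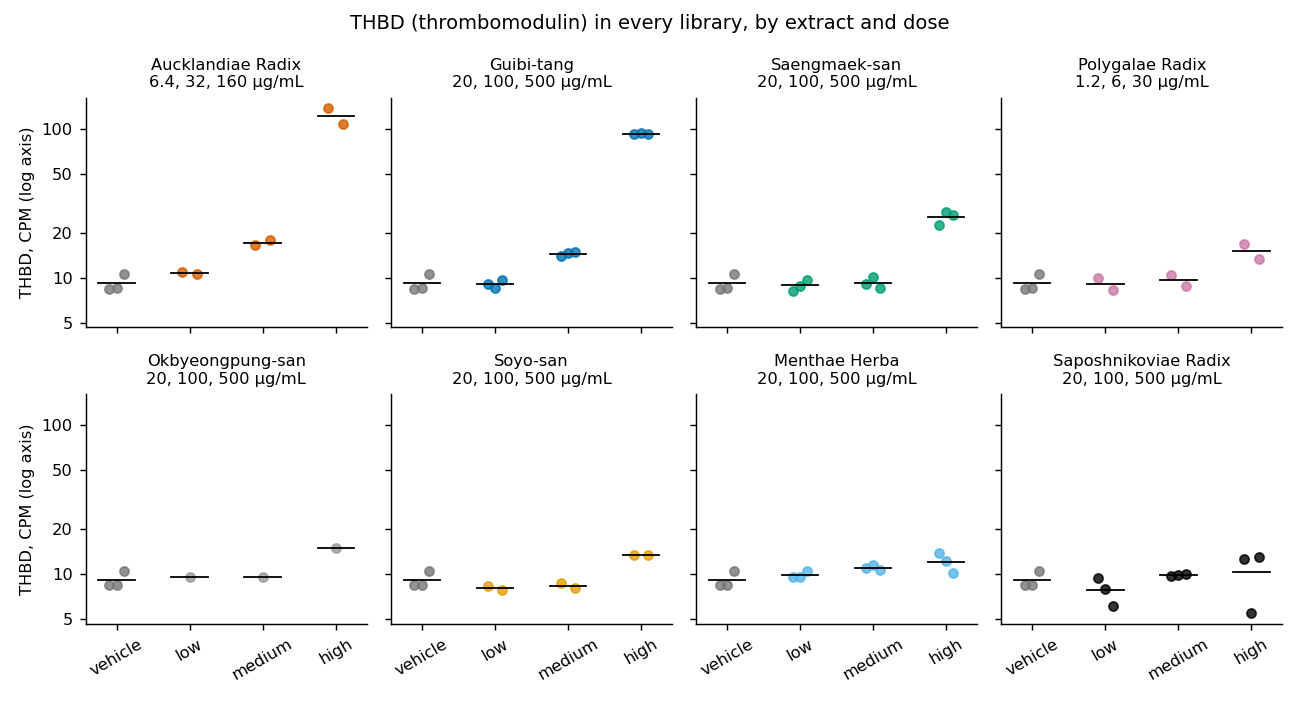
THBD in TMM-scaled CPM (log axis) in every library, 1 panel per extract, with vehicle, low, medium and high dose from left to right; points are libraries. Aucklandiae Radix high (137 and 108 CPM) and Guibi-tang high (91.4 to 94.1 CPM) stand above all other libraries, and Saengmaek-san high (22.5 to 27.6 CPM) follows.

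Ranked by log2 fold change over vehicle among 18578 genes, THBD was 44th with Aucklandiae Radix, 67th with Guibi-tang and 242nd with Saengmaek-san. It was 1193rd with Soyo-san, 3494th with Polygalae Radix, 3628th with Menthae Herba and 6445th with Saposhnikoviae Radix. Against the low dose of the same extract, the log2 fold changes were 3.50 for Aucklandiae Radix, 3.35 for Guibi-tang and 1.52 for Saengmaek-san, and 0.29 to 0.73 for Polygalae Radix, Menthae Herba, Saposhnikoviae Radix and Soyo-san. In the order of all 25 groups, Aucklandiae Radix medium came next at 17.2 CPM and overlapped Polygalae Radix high at 15.1 CPM. From there to the lowest group, Saposhnikoviae Radix low at 7.81 CPM, neighbours overlapped except beside Okbyeongpung-san, which had 1 library a dose, and between Guibi-tang medium (14.1 to 14.8 CPM) and Soyo-san high.

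The choice of THBD named no dose and was made with earlier results of these data known. Tests of THBD at the medium doses may therefore not be independent of that choice. Their p-values are given as description, not as support for a rise. Along the doses of Aucklandiae Radix, THBD averaged 9.16 CPM in vehicle, 10.8 at 6.4 µg/mL, 17.2 at 32 µg/mL and 122 at 160 µg/mL. Along those of Guibi-tang it averaged 9.16 CPM in vehicle, 9.11 at 20 µg/mL, 14.5 at 100 µg/mL and 92.6 at 500 µg/mL. Guibi-tang medium libraries had 14.1, 14.6 and 14.8 CPM, against 9.07, 8.55 and 9.69 CPM in low-dose libraries, with no overlap, and a log2 difference of 0.67 ± 0.168 (SE) that missed the threshold (adjusted p = 0.055). Aucklandiae Radix medium libraries had 16.7 and 17.8 CPM, against 11.0 and 10.6 CPM at the low dose, a log2 difference of 0.68 ± 0.204 (SE, adjusted p = 0.382). Adjusted p-values are from the quasi-likelihood test of edgeR with Benjamini-Hochberg adjustment over all 18578 genes, and a gene was called below 0.05. The Guibi-tang difference was called with RLE size factors (adjusted p = 0.0487) and with DESeq2 (adjusted p = 0.00617). Without the 4 length-tilted libraries both were called, with adjusted p = 3.03e-05 for Guibi-tang and 0.00142 for Aucklandiae Radix, and likewise when the length slope entered as a covariate (1.8e-05 and 0.00337). For the other 5 tested extracts the medium dose differed from the low dose by 0.05 to 0.34 on the log2 scale, none of it called.

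In the fit as reported, calls among the 8 tested genes were mostly falls with Polygalae Radix and Guibi-tang, and all were rises with Aucklandiae Radix and Saengmaek-san. With Polygalae Radix high against vehicle 7 of 8 were lower and 0 higher, beside 26.4% and 23.7% of all tested genes, with a median log2 fold change of -0.91 over the 8 genes and 0.04 over all genes. Against its low dose 7 were lower and 0 higher, beside 26.2% and 21.6%, with a median of -1.21. With Guibi-tang high against vehicle 5 were lower and 2 higher, beside 27.8% and 24.5%, with a median of -0.42. Against its low dose the counts were also 5 lower and 2 higher, beside 28.7% and 24.6%, with a median of -0.70. Both extracts changed about 1 tested gene in 2, which is the background for these counts. The line's own abundant markers were low in the same libraries. VIM averaged 634 CPM with Polygalae Radix high and 780.4 CPM with Guibi-tang high, against 5220 CPM in vehicle, and CD44 averaged 828 and 1017 CPM, against 2891 CPM. CD44 was also low with Menthae Herba high (1404 CPM), where VIM was not (5245 CPM). Their part in the counts was not tested.

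With Aucklandiae Radix high against vehicle 4 of 8 were higher and 0 lower, beside 16.5% and 17.7% of all genes, and the median was 0.34. Against its low dose 3 were higher and 0 lower, beside 10.8% and 14.2%, and the median was 0.04. With Saengmaek-san high against vehicle 5 were higher and 0 lower, beside 9.08% and 9.29%, and the median was 0.43. Against its low dose 2 were higher and 0 lower, beside 2.68% and 3.39%, and the median was 0.25. Leaving out any 1 of the 6 Saengmaek-san libraries left 1 call in that comparison, whereas DESeq2 called 4 genes (TFPI2 and PLAUR added) and the fit without length-tilted libraries 5 (F3 added as well).

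With Menthae Herba more genes fell than rose, and few were called with Saposhnikoviae Radix and Soyo-san. With Menthae Herba high against vehicle 1 was higher and 5 lower, beside 11.2% and 12.8% of all genes, with a median of -0.40, and against its low dose 0 were higher and 4 lower, beside 6.43% and 10.0%, with a median of -0.45. With Saposhnikoviae Radix high against vehicle 2 were higher and 1 lower, beside 9.46% and 4.33%, and against its low dose 0 were higher and 1 lower, beside 0.215% and 0.178%, with medians of 0.17 and -0.07. Its vehicle count became 1 without Vehicle replicate 2 or Vehicle replicate 3 and 5 without Saposhnikoviae Radix high replicate 3. With Soyo-san high against vehicle 1 was higher and 0 lower, beside 1.73% and 1.36%, and against its low dose 0 were higher and 0 lower, beside 0.296% and 0.226%, with medians of 0.05 and -0.04. Where a direction held 0 calls in edgeR, DESeq2 also called 0, and at an unadjusted p under 0.05 edgeR gave 1 lower gene for Aucklandiae Radix and for Soyo-san in each of their comparisons and 0 elsewhere. The comparisons with vehicle share its 3 libraries, and those with the low dose share the high-dose libraries with them. Of 33 calls against vehicle, 22 held in every alternative fit, as did 18 of 24 against the low dose.

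**Figure D2:**
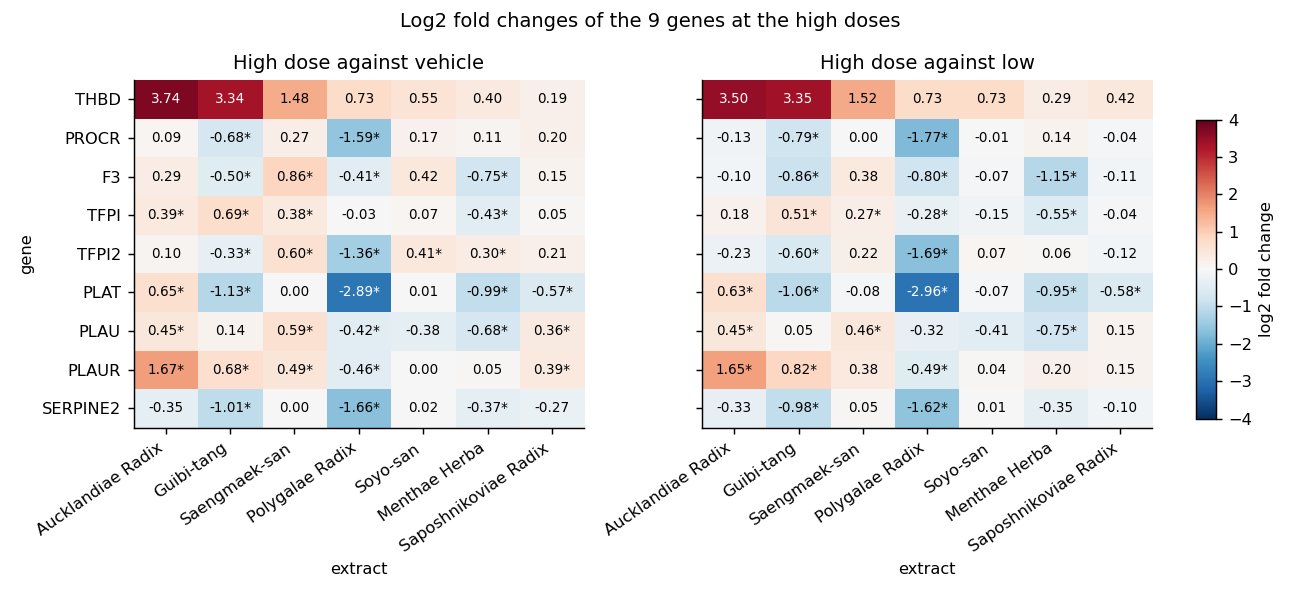
Log2 fold changes of the 9 genes (rows) at the high dose of 7 extracts (columns), against vehicle in one panel and against the low dose in the other; stars mark genes called at adjusted p under 0.05, and THBD carries no test. PLAT reaches -2.89 with Polygalae Radix and 0.65 with Aucklandiae Radix against vehicle, and PLAUR reaches 1.67 with Aucklandiae Radix.

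The protein C receptor did not share the rise of thrombomodulin. PROCR fell to 14.6 and 17.4 CPM in Polygalae Radix high libraries, against 51.8, 48.6 and 43.6 CPM in vehicle libraries and 53.6 and 55.3 CPM at the low dose (log2 fold change over vehicle -1.59 ± 0.122 SE, adjusted p = 4.05e-14). It fell to 31.1, 27.4 and 31.2 CPM with Guibi-tang high (log2 fold change over vehicle -0.68 ± 0.103 SE, adjusted p = 4.68e-07). Neither group overlapped vehicle or its low dose. With Aucklandiae Radix high PROCR had 49.8 and 52.1 CPM, and the log2 fold change of 0.09 ± 0.114 (SE) was not called. Its median annotated transcript is 642 bases long, the shortest of the 9, and over the 60 libraries its level varied with the length slope at a Pearson r of -0.79, given as a description. The slope was 0.128 and 0.131 in Polygalae Radix high libraries and 0.108 to 0.117 in Guibi-tang high libraries, the 5 highest values at the high doses. With the slope as a covariate the log2 fold changes over vehicle were -1.36 and -0.48, and both were called. The single Okbyeongpung-san high library, which was length-tilted, had the highest PROCR of all at 83.7 CPM.

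Tissue factor moved in opposite directions between extracts. F3 rose to 246, 244 and 252 CPM in Saengmaek-san high libraries, against 141, 132 and 134 CPM in vehicle libraries (log2 fold change 0.86 ± 0.152 SE, adjusted p = 6.72e-05). It was also above 194, 188 and 187 CPM of the Saengmaek-san low dose, but there the log2 difference of 0.38 ± 0.151 (SE) was not called (adjusted p = 0.141), though it was without the length-tilted libraries (adjusted p = 2.26e-05). F3 fell with Menthae Herba to 92.2, 84.6 and 65.3 CPM, against 178, 179 and 179.9 CPM at the low dose (log2 fold change -1.15 ± 0.153 SE, adjusted p = 3.11e-07). The 3 high-dose libraries lay below all vehicle libraries as well.

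F3 also fell with Guibi-tang to 101, 90.1 and 97.0 CPM, against 184, 173 and 167 CPM at the low dose (log2 fold change -0.86 ± 0.152 SE, adjusted p = 7.52e-06). With Polygalae Radix it fell to 100.1 and 104 CPM, against 173 and 182 CPM at the low dose (log2 fold change -0.80 ± 0.186 SE, adjusted p = 0.000468). The fall below vehicle with Polygalae Radix, -0.41 on the log2 scale (adjusted p = 0.0434), was not called after leaving out any 1 of its 2 libraries or the 3 vehicle libraries (adjusted p 0.057 to 0.163). With the length slope as a covariate the falls were larger, -0.76 against vehicle and -1.27 against the low dose for Polygalae Radix and -0.81 against vehicle for Guibi-tang. Saposhnikoviae Radix high libraries had 191, 78.7 and 182 CPM, the low one being the length-tilted replicate 2.

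The vehicle libraries were low for F3. All 19 low-dose libraries of the 8 extracts lay above them, at 145 to 194 CPM, as did all 19 medium-dose libraries at 162 to 212 CPM. For TFPI2 all 19 low-dose libraries, at 71.2 to 85.8 CPM, lay above vehicle at 56.9 to 66.0 CPM, but of the 19 medium-dose libraries 16 lay above and 1 below. For TFPI 17 of 19 low-dose and 18 of 19 medium-dose libraries lay above vehicle. Vehicle and extract libraries came from different name sets, so an effect of the low doses and of the sets cannot be told apart, and for these genes a fall measured from vehicle is smaller than one measured from the low dose.

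The inhibitor TFPI was highest with Guibi-tang high, and was above vehicle in the 3 groups where THBD was highest, though not in the order of THBD. TFPI had 82.6, 79.7 and 80.8 CPM in Guibi-tang high libraries, against 48.6, 51.0 and 51.2 CPM in vehicle libraries (log2 fold change 0.69 ± 0.0806 SE, adjusted p = 2.13e-09) and 60.9, 57.0 and 52.6 CPM at the low dose. It had 69.8 and 61.9 CPM with Aucklandiae Radix high, above vehicle by 0.39 on the log2 scale (adjusted p = 0.000623), but the difference of 0.18 ± 0.0984 (SE) from its low dose was not called, and its medium dose, where THBD was far lower, averaged 67.4 CPM, against 65.8 CPM at the high dose. The single Okbyeongpung-san high library, with 14.9 CPM of THBD, had 68.1 CPM of TFPI. With Saengmaek-san high it had 61.4, 66.2 and 68.9 CPM, above vehicle by 0.38 (adjusted p = 0.000699) and above the low dose by 0.27 (adjusted p = 0.0335). That last call was lost without Saengmaek-san high replicate 2 or 3 or without any low-dose library of it (adjusted p 0.0607 to 0.192). TFPI fell with Menthae Herba to 40.9, 37.5 and 33.5 CPM, against 51.0, 55.7 and 56.5 CPM at the low dose (log2 fold change -0.55 ± 0.0809 SE, adjusted p = 2.66e-06). With Polygalae Radix it was lower than at the low dose by 0.28 on the log2 scale (log2 fold change -0.28, adjusted p = 0.017), a call lost without Polygalae Radix high replicate 2 (adjusted p = 0.244), low replicate 2 (0.058) or low replicate 3 (0.0605).

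The matrix inhibitor TFPI2 followed PROCR more closely than TFPI. It fell to 20.9 and 27.7 CPM in Polygalae Radix high libraries, against 66.0, 64.5 and 56.9 CPM in vehicle libraries (log2 fold change -1.36 ± 0.0949 SE, adjusted p = 2.24e-15). Guibi-tang high gave 50.5, 47.5 and 50.7 CPM, against 71.7, 76.2 and 78.0 CPM at the low dose (log2 fold change -0.60 ± 0.0805 SE, adjusted p = 4.07e-08). Saengmaek-san high gave 95.0, 92.5 and 95.8 CPM, above vehicle (log2 fold change 0.60, adjusted p = 1.29e-06) and not called against the low dose (0.22, adjusted p = 0.0916). The rises over vehicle of 0.41 with Soyo-san (adjusted p = 0.00494) and 0.30 with Menthae Herba (adjusted p = 0.00525) were both lost without Vehicle replicate 3 (adjusted p = 0.0609 and 0.0662), and that of Soyo-san also without its high replicate 1 (0.0788) or 2 (0.0747). Over the 60 libraries PROCR and TFPI2 had the highest Pearson correlation of log2 level among the 36 pairs of these genes, 0.92, and 0.71 over the 41 libraries without the high doses. TFPI2 varied with the length slope at r = -0.60. Groups, sets and depth are shared by these points, so the values describe the libraries only.

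Promoter sequence from RefSeq (GRCh38.p14), as 250 bases before each start, was matched for 7 of the 9 genes, THBD and PLAT not among them. The stretches before PROCR and F3 are shown as examples, though TFPI, PLAU and SERPINE2, not shown, were also called with several extracts. The 30 bases around 1 site each before TFPI2 and PLAUR are shown because they hold the motif that F3 holds 2 times. The PROCR stretch is chr20:35171822-35172071 on the plus strand, and the F3 stretch is chr1:94541801-94542009 on the minus strand, 209 bases that stop where the GENCODE gene begins, 42 bases before the RefSeq start (-42). The TFPI2 site is chr7:93890822-93890851 and the PLAUR site chr19:43670337-43670366, both on the minus strand. Both sites lie before the RefSeq start but inside the GENCODE spans given above, which begin further upstream. Capitals mark matches to any motif searched, on either strand, for PROCR and F3, and only the AP-1 match for TFPI2 and PLAUR, so a CACCC match of TFPI2 at -78 is in lower case.
PROCR: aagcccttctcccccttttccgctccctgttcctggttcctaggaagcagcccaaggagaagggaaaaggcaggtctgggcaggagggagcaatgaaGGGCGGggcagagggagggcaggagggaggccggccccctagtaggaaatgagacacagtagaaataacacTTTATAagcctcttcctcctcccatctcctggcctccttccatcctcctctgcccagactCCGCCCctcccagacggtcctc
F3: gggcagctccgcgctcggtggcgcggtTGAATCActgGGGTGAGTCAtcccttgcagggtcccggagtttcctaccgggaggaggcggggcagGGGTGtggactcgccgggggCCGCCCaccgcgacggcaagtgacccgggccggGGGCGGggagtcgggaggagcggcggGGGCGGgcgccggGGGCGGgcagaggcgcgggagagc
TFPI2: gtccccgtgcaTGAATCAgccacccctcag
PLAUR: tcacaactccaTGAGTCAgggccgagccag

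The AP-1 motif TGANTCA, which FOS and JUN proteins bind, occurred before 3 of the 7 genes. It began 223 and 210 bases before the start of F3 (counted back as -223 and -210), at -87 for TFPI2 and at -186 for PLAUR. In all, 6.57% of 35116 promoters of the same length held it. The GC box GGGCGG was found before 5 of 7 genes (42.6% of all promoters), CACCC before 4 (54.7%), with 1 CACCC match overlapping an AP-1 match of F3, and TATAAA before 2 (10.7%), PROCR and F3, the match of F3 at -28 lying outside the stretch shown. The cyclic AMP element TGACGTCA (1.65%), the antioxidant element TGACNNNGC (10.9%) and the heat shock pair GAANNTTC (5.78%) were found before 0 of 7. A match is a description of the letters only. Over vehicle, F3, TFPI2 and PLAUR were all called higher with Saengmaek-san and all lower with Polygalae Radix. In the second case the F3 and PLAUR calls were lost in some alternative fits. With the other tested extracts they were not all called in the same direction. With Aucklandiae Radix PLAUR was up and TFPI2 not called, and with Guibi-tang F3 and TFPI2 were down and PLAUR up. The part of the motif in these changes was not tested.

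Tissue-type plasminogen activator had the widest span of the tested genes. PLAT fell to 33.9 and 35.6 CPM in Polygalae Radix high libraries, against 262, 248 and 262 CPM in vehicle libraries and 269.8 CPM in both low-dose libraries (log2 fold change over vehicle -2.89 ± 0.0825 SE, adjusted p = 3.98e-27). It rose to 394 and 412 CPM with Aucklandiae Radix high (log2 fold change 0.65 ± 0.0718 SE over vehicle, adjusted p = 1.76e-09). No library of either group overlapped vehicle or its low dose. PLAT also fell with Guibi-tang to 119.7, 109 and 124 CPM (log2 fold change -1.13 ± 0.0658 SE over vehicle, adjusted p = 8.22e-18) and with Menthae Herba to 137, 128 and 124 CPM (-0.99 ± 0.0656 SE, adjusted p = 1.04e-14). With Saposhnikoviae Radix high it had 183, 149 and 188 CPM, a log2 fold change of -0.57 over vehicle (adjusted p = 3.84e-07) and -0.58 over the low dose (adjusted p = 6.51e-07). Those 2 calls were lost only when Saposhnikoviae Radix and its comparison group were fitted alone (adjusted p = 0.717 and 1). With Saengmaek-san (258, 265 and 251 CPM) and Soyo-san (261 and 256 CPM) it lay within or across the vehicle range and was not called. The single Okbyeongpung-san libraries had 255 CPM at the low, 212 at the medium and 153 at the high dose.

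PLAT changed in steps with dose. Along Polygalae Radix it averaged 257 CPM in vehicle, 269.8 at 1.2 µg/mL, 176 at 6 µg/mL and 34.7 at 30 µg/mL. The medium dose was below the low dose by 0.61 on the log2 scale (log2 difference -0.61 ± 0.0799 SE, adjusted p = 5.29e-06), with 174 and 179 CPM against 269.8 CPM in both. Along Aucklandiae Radix the means were 257, 259.8, 305 and 403 CPM, and the medium against low difference of 0.23 ± 0.0795 (SE) was not called. In Guibi-tang the medium dose gave 209.9, 210.0 and 199 CPM, against 252, 241 and 247 CPM at the low dose, and the log2 difference of -0.26 ± 0.065 (SE) was not called (adjusted p = 0.0619). Same-numbered replicates of these groups deviated together (r of 0.209 to 0.577 over 3 pairs). With the replicate number as a block in the edgeR fit PLAT was called there (adjusted p = 0.041). That block was a shift per number shared by all 60 libraries, so it was not a paired test of these groups.

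Urokinase was lowered by Menthae Herba and raised by Saengmaek-san. PLAU had 52.1, 40.8 and 63.0 CPM in Menthae Herba high libraries, against 85.0, 86.8 and 90.3 CPM at the low dose (log2 fold change -0.75 ± 0.116 SE, adjusted p = 5.05e-06). Saengmaek-san high gave 133, 120.3 and 124 CPM, against 88.6, 78.9 and 82.2 CPM in vehicle libraries (log2 fold change 0.59 ± 0.115 SE, adjusted p = 0.000247). No high-dose library overlapped its comparison group in either case. Against the low dose the Saengmaek-san rise was 0.46 (adjusted p = 0.00873), and it was lost without Saengmaek-san high replicate 1 (adjusted p = 0.0519). Aucklandiae Radix high gave 104 and 125 CPM, a rise of 0.45 over vehicle (adjusted p = 0.00451) and over its low dose (adjusted p = 0.015). Without Aucklandiae Radix high replicate 3 both were lost (adjusted p = 0.153 and 0.229), and the second also without low replicate 2 (0.0683) or 3 (0.0883). The fall of 0.42 below vehicle with Polygalae Radix (log2 fold change -0.42, adjusted p = 0.00655) was lost without Polygalae Radix high replicate 2 (adjusted p = 0.0945). Soyo-san high gave 63.9 and 64.1 CPM, below every vehicle library and every library of its low dose (84.9 to 85.3 CPM), but PLAU was not called there. Without the length-tilted libraries it was called lower against vehicle (-0.38, adjusted p = 0.0129) and the low dose (-0.41, adjusted p = 0.0381). Guibi-tang high gave 90.9, 96.1 and 89.0 CPM, and PLAU was not called there against vehicle (0.14 ± 0.115 SE), though it was called with the slope covariate (0.34, adjusted p = 0.000274) and with only these groups fitted (adjusted p = 0.0154).

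The urokinase receptor rose over vehicle in the 3 groups where thrombomodulin was highest, and was also high in libraries where thrombomodulin was not. PLAUR had 214 and 199 CPM in Aucklandiae Radix high libraries, against 68.5, 63.7 and 62.0 CPM in vehicle libraries and 68.2 and 63.7 CPM at the low dose (log2 fold change over vehicle 1.67 ± 0.137 SE, adjusted p = 8.92e-13). Guibi-tang high gave 109, 95.9 and 106 CPM (0.68 ± 0.125 SE over vehicle, adjusted p = 1.65e-05). Saengmaek-san high gave 94.8, 83.0 and 94.3 CPM (0.49 ± 0.125 SE over vehicle, adjusted p = 0.00508), which was not called against its low dose (0.38, adjusted p = 0.0606). In all 3 extracts every high-dose library lay above every vehicle library. The single Okbyeongpung-san high library, which was length-tilted and had 14.9 CPM of THBD, came second of all groups with 141 CPM of PLAUR. Saposhnikoviae Radix high replicate 2, also length-tilted, had 110.4 CPM of PLAUR and 5.47 CPM of THBD. PLAUR fell with Polygalae Radix to 47.8 and 46.3 CPM (log2 fold change over vehicle -0.46 ± 0.142 SE, adjusted p = 0.00651). That call was lost without Polygalae Radix high replicate 3 (adjusted p = 0.052) and with the length slope as a covariate (-0.18, adjusted p = 0.0506), and the call against the low dose (-0.49, adjusted p = 0.00784) without low replicate 3 (0.181) or with that covariate (-0.11, adjusted p = 0.306). With Saposhnikoviae Radix high, PLAU (94.6, 129.6 and 97.4 CPM) and PLAUR (72.3, 110.4 and 72.8 CPM) were highest in the length-tilted replicate 2, and their calls over vehicle (adjusted p = 0.0314 and 0.0323) were lost without it (adjusted p = 0.407 and 0.545). They were also lost without Vehicle replicate 2 (0.118 and 0.0996) or 3 (0.104 and 0.123), and PLAUR without Vehicle replicate 1 (0.0542).

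SERPINE2, the most abundant of the 9 genes per length, fell furthest with Polygalae Radix and Guibi-tang, as PROCR did. It had 216 and 201 CPM in Polygalae Radix high libraries, against 658, 661 and 662 CPM in vehicle libraries (log2 fold change -1.66 ± 0.166 SE, adjusted p = 4.84e-11). Guibi-tang high gave 302, 331 and 349 CPM (log2 fold change over vehicle -1.01 ± 0.141 SE, adjusted p = 9.84e-08). These 5 libraries lay below every other library of their extracts and of vehicle. With Aucklandiae Radix high both libraries had 519 CPM, and the log2 fold change of -0.35 ± 0.158 (SE) was not called over all groups (adjusted p = 0.0859). It was called when only Aucklandiae Radix and vehicle libraries were fitted (adjusted p = 0.000382), without the length-tilted libraries (0.000487) and with the slope covariate (0.0339). With Menthae Herba high SERPINE2 had 569, 519.5 and 440.1 CPM, and its call against vehicle (-0.37, adjusted p = 0.0466) was lost without any 1 vehicle library (adjusted p 0.088 to 0.104) and without Menthae Herba high replicate 2 (0.073) or 3 (0.266). Saposhnikoviae Radix high replicate 2, which was length-tilted, had 305 CPM beside 652 and 680 CPM in the other 2 libraries. The share of counts from mitochondrial genes was 19.2% and 11.7% in Polygalae Radix high libraries and 7.82% to 9.39% in Guibi-tang high libraries, against 10.1% to 10.3% in vehicle, and its part in these falls was not tested.

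**Figure D3:**
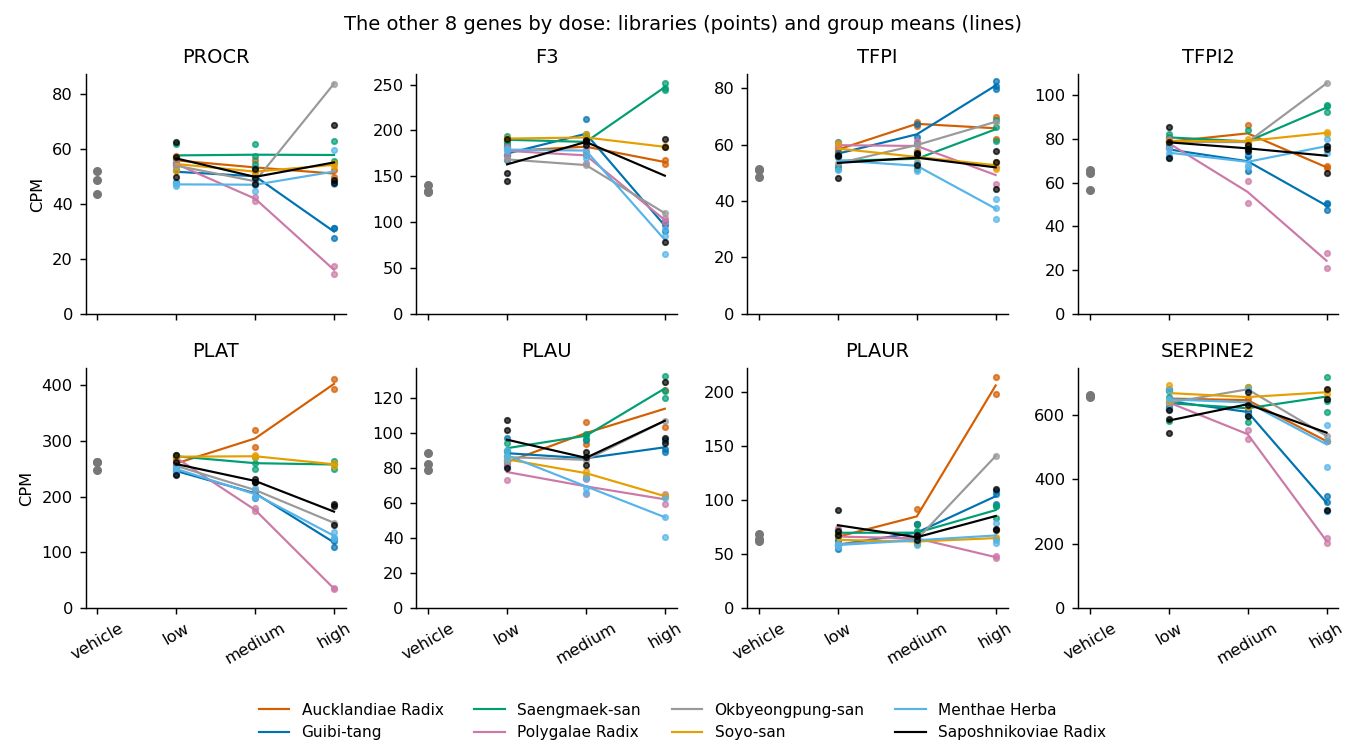
TMM-scaled CPM of the 8 tested genes (1 panel each, axis from 0) in vehicle and at the low, medium and high dose; points are libraries, lines join the means of an extract. The high-dose points spread widest for PLAT, which runs from 33.9 CPM with Polygalae Radix to 412 CPM with Aucklandiae Radix, while the low-dose points of all extracts lie between 239 and 276 CPM.

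Between medium and low doses few genes of the group moved. With Polygalae Radix 2 of 9 were called, both lower, PLAT and TFPI2 (log2 difference -0.49, adjusted p = 0.00374), beside 1.70% of all genes. The TFPI2 call was lost without Polygalae Radix medium replicate 2 (adjusted p = 0.255) or low replicate 3 (0.093). For the other 6 tested extracts edgeR called 0 of 9, beside 0.118% of all genes for Aucklandiae Radix, 0.447% for Guibi-tang, 0.00538% for Menthae Herba, 0.00538% for Soyo-san, 0% for Saposhnikoviae Radix and 0% for Saengmaek-san. At an unadjusted p under 0.05 edgeR gave 4 of 9 for Aucklandiae Radix, beside 833 of all 18578 genes. It gave 4 for Guibi-tang, beside 1139 genes, and 2 for Menthae Herba, beside 415. For Saposhnikoviae Radix it gave 1, beside 5435 genes. For Saengmaek-san and Soyo-san it gave 0, beside 196 and 205 genes. DESeq2 called 2 genes for Guibi-tang, THBD higher and PLAT lower, 1 for Menthae Herba, PLAT lower, and 0 for the other 4. Without Saposhnikoviae Radix low replicate 1, edgeR called 1 gene for that extract.

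Extracts of the same library-name set could be compared directly, as the difference between their changes from low to high dose. Polygalae Radix and Aucklandiae Radix, whose doses differ, stood furthest apart, and 8 of 8 genes changed by less, or fell by more, with Polygalae Radix (0 higher), beside 19.4% of all genes lower and 16.0% higher. The difference was -3.59 ± 0.116 (SE) for PLAT, which fell by 2.96 with Polygalae Radix (log2 fold change -2.96) and rose by 0.63 with Aucklandiae Radix, and -2.14 ± 0.218 for PLAUR. Those for F3 and TFPI were the least stable. F3 (adjusted p = 0.0342) was lost in 7 of the 8 fits without 1 library, all but that without Polygalae Radix low replicate 2 (adjusted p 0.0548 to 0.0887), and TFPI (adjusted p = 0.0087) without Polygalae Radix high replicate 2 (0.0592) or Aucklandiae Radix high replicate 2 (0.0653). For THBD the difference was -2.77, given without a test.

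Guibi-tang and Saengmaek-san, both at 500 against 20 µg/mL, differed in 7 of 8 genes, 6 lower and 1 higher with Guibi-tang, beside 21.0% and 15.5% of all genes. F3 had the largest difference, -1.25 ± 0.214 (SE, adjusted p = 9.87e-06), falling with Guibi-tang and standing higher with Saengmaek-san. SERPINE2, PLAT, TFPI2 and PROCR differed by -1.02 to -0.79, all with Guibi-tang lower. PLAUR was higher with Guibi-tang by 0.44 (adjusted p = 0.0461) and PLAU lower by 0.40 (log2 difference -0.40, adjusted p = 0.0465). Those 2 calls were lost in 10 and 9 of the 12 fits without 1 library (adjusted p 0.0505 to 0.113 and 0.0526 to 0.139). They held for PLAUR without Guibi-tang high replicate 2 or low replicate 2 and for PLAU without Saengmaek-san high replicate 2, Guibi-tang low replicate 1 or high replicate 2. TFPI rose in both and its difference of 0.24 ± 0.113 (SE) was not called (adjusted p = 0.0939, and 0.0211 without the length-tilted libraries). For THBD the difference was 1.83.

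Menthae Herba and Saposhnikoviae Radix at the same doses differed in 4 of 8 genes, all lower with Menthae Herba and 0 higher, beside 7.61% of all genes lower and 4.43% higher. They were F3 (-1.04 ± 0.214 SE), PLAU (-0.90 ± 0.163), TFPI (-0.50 ± 0.114) and PLAT (-0.37 ± 0.0919), with adjusted p of 0.000132 to 0.00525. PROCR (0.18 ± 0.144), TFPI2 (0.17 ± 0.113), PLAUR (0.05 ± 0.177) and SERPINE2 (-0.25 ± 0.198) were not called, and these errors leave room for differences of a similar size. When only the 4 groups of this pair were fitted, 0 of 8 were called, and without the length-tilted libraries all 4 calls held. In both pairs with 0 genes higher, DESeq2 and the edgeR test at an unadjusted p under 0.05 also gave 0.

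**Figure D4:**
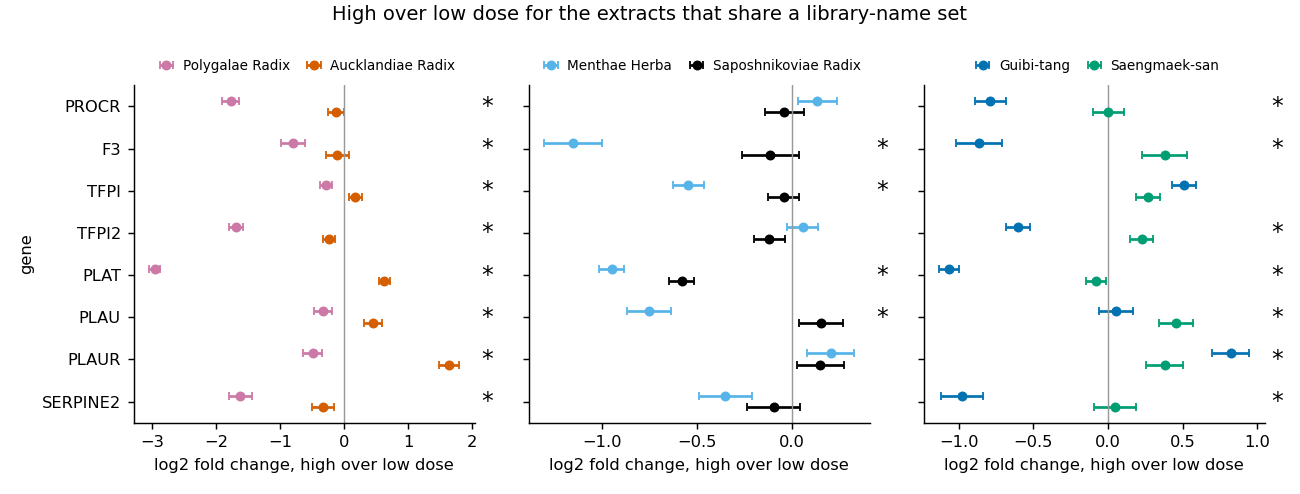
Log2 fold changes of high over low dose for the 8 tested genes in the 3 pairs of extracts that share a library-name set; points are estimates, bars the SE, and stars genes whose difference between the 2 extracts was called. PLAT lies at -2.96 with Polygalae Radix and 0.63 with Aucklandiae Radix, and F3 at -0.86 with Guibi-tang and 0.38 with Saengmaek-san.

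A list of 53 other genes of clotting, its inhibitors, fibrinolysis, thrombin receptors and the transcription factors known to act on these genes was read beside them, of which 35 were tested. Against vehicle the numbers higher and lower were 7 and 18 with Polygalae Radix, 7 and 18 with Guibi-tang, 10 and 7 with Aucklandiae Radix, 3 and 13 with Menthae Herba, 5 and 7 with Saengmaek-san, 2 and 6 with Saposhnikoviae Radix and 1 and 2 with Soyo-san. The shares over all genes given above ran from 1.73% higher and 1.36% lower with Soyo-san to 24.5% and 27.8% with Guibi-tang. Against the low dose the numbers were 6 and 18 with Polygalae Radix, 7 and 17 with Guibi-tang, 8 and 6 with Aucklandiae Radix, 3 and 11 with Menthae Herba, 2 and 3 with Saengmaek-san, and 0 and 0 with Saposhnikoviae Radix and Soyo-san. At an unadjusted p under 0.05 edgeR gave 1 higher and 4 lower with Saposhnikoviae Radix and 2 higher and 1 lower with Soyo-san, DESeq2 called 0 and 1 in all, and edgeR called 12 without the length-tilted Saposhnikoviae Radix high replicate 2. Of the vehicle calls named next, those with Saposhnikoviae Radix and Soyo-san were therefore not called against the low dose over all libraries, nor were those of LRP1, ENTPD1, F2R and KLF4 with Saengmaek-san, F2R with Guibi-tang and KLF2 with Aucklandiae Radix. Several liver-made factors were barely read, with at most 2 counts in any library for prothrombin (F2), 3 for F7 and 2 for plasminogen (PLG), while the fibrinogen chain FGG reached 356 and F12 100 counts.

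Of the fibrinolysis genes, LRP1, which clears protease complexes, fell with Polygalae Radix to 49.2 ± 0.456 CPM (SD, n = 2) and with Menthae Herba to 59.2 ± 26.0 CPM (n = 3), against 291 ± 13.8 CPM in vehicle (n = 3). It was also lower with Guibi-tang (74.6 CPM) and with Saengmaek-san (155 CPM, a call lost in 5 of 13 alternative fits). ANXA2, a plasminogen co-receptor, fell with Guibi-tang to 309 CPM, against 1246 CPM in vehicle (log2 fold change -2.01, adjusted p = 1.34e-21). Neuroserpin (SERPINI1), an inhibitor of PLAT, rose with Aucklandiae Radix to 6.63 CPM, against 1.26 CPM in vehicle (log2 fold change 2.40, adjusted p = 4.82e-09), and fell with Polygalae Radix to 0.186 CPM (-2.71, adjusted p = 4.59e-07). SERPINI1 moved in the direction of PLAT with both extracts. SERPINB2, an inhibitor of urokinase, had 24.2 CPM with Saposhnikoviae Radix, against 16.0 CPM in vehicle (adjusted p = 0.00241), a call lost when only these groups were fitted (adjusted p = 0.717).

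Among clotting factors FGG, a fibrinogen chain, fell with Polygalae Radix to 1.42 CPM, against 7.96 CPM in vehicle (adjusted p = 1.9e-14), and GAS6, a ligand related to protein S, fell with Aucklandiae Radix to 87.2 CPM, against 214 CPM (adjusted p = 1.43e-05). FGB, another fibrinogen chain, had 0.108 CPM with Aucklandiae Radix, against 0.359 CPM in vehicle (adjusted p = 0.0187, lost in 4 of 11 alternative fits). The thrombin receptor F2R fell with Aucklandiae Radix to 38.2 CPM and with Menthae Herba to 41.1 CPM, against 84.4 CPM in vehicle (adjusted p = 2.15e-07 and 2.14e-07), and had 85.6 CPM with Polygalae Radix, where it was not called. It was also lower with Saengmaek-san (58.1 CPM), Guibi-tang (64.0 CPM) and Saposhnikoviae Radix (63.8 CPM), the last a call lost in 8 of 13 alternative fits. ENTPD1, an ectonucleotidase that restrains platelets, rose with Saengmaek-san to 9.09 CPM, against 5.57 CPM in vehicle (adjusted p = 0.00398).

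KLF2 and KLF4, transcription factors known to raise THBD in endothelium, did not move as one. KLF2 averaged 16.6 ± 1.71 CPM (SD, n = 3) in Guibi-tang high libraries and 11.1 ± 3.38 (n = 2) in Polygalae Radix high libraries, against 3.76 ± 0.590 CPM in vehicle libraries (n = 3), with log2 fold changes of 2.14 and 1.57 (adjusted p = 1.62e-09 and 4.62e-06). With Aucklandiae Radix it averaged 7.30 ± 3.81 CPM, and that call was lost without Aucklandiae Radix high replicate 2 (adjusted p = 0.572). KLF4 rose with Aucklandiae Radix to 19.7 ± 0.148 CPM (n = 2), against 6.75 ± 0.226 CPM in vehicle (log2 fold change 1.55, adjusted p = 2.15e-13). It rose with Menthae Herba to 12.2 CPM (0.85, adjusted p = 1.52e-07) and with Guibi-tang to 9.26 CPM (0.46, adjusted p = 0.000649). It was lower with Saengmaek-san (5.19 CPM, adjusted p = 0.0159) and Saposhnikoviae Radix (5.19 CPM, adjusted p = 0.0284), calls that were lost in 3 and 8 alternative fits. The immediate early factor EGR1 was called lower than vehicle with 6 of the 7 tested extracts, Aucklandiae Radix apart, down to 26.6 CPM with Guibi-tang, against 159.9 CPM in vehicle (log2 fold change -2.59, adjusted p = 4.29e-08). Its calls with Saengmaek-san, Saposhnikoviae Radix and Soyo-san were lost in 1, 2 and 5 alternative fits. Against the low dose EGR1 was called lower with Guibi-tang alone (log2 fold change -1.16, adjusted p = 0.00334) of the 7 tested extracts. RARA, a retinoic acid receptor, fell with Saengmaek-san to 67.9 CPM, against 112 CPM in vehicle (adjusted p = 6.97e-06), and ETS2 had 122 CPM with Soyo-san, against 92.2 CPM in vehicle (adjusted p = 0.0114, lost in 5 of 12 alternative fits).

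Across 60 libraries and the 11559 genes whose log2 CPM averaged 2 or more, the gene whose log2 level was most like that of THBD was DUSP6, a phosphatase that acts on ERK, with a Pearson r of 0.93 (Spearman rho 0.71). SPRY2 (0.93), an inhibitor of receptor tyrosine kinase signalling, the potassium channel gene KCNC4 (0.92), the phosphatase gene DUSP5 (0.92) and RFFL (0.91) followed. DUSP6 averaged 85.3 CPM in Aucklandiae Radix high libraries, 57.1 with Guibi-tang and 38.0 with Saengmaek-san, against 23.3 CPM in vehicle libraries. Over the 41 libraries without the high doses its r was 0.59. The least like were LYPD1 (-0.94), the Wnt-binding secreted protein gene SFRP2 (-0.92) and STAC2 (-0.91). LYPD1 averaged 3.07 CPM in Aucklandiae Radix high libraries, 6.54 with Guibi-tang and 22.7 with Saengmaek-san, against 40.8 CPM in vehicle libraries, and its r without the high doses was -0.80. The pattern that ranks these genes is that of THBD at the high doses, so these values describe likeness over libraries that share groups, sets and depth. Among the 8 genes of the group PLAUR was the most like THBD, with r = 0.69, and 0.16 without the high doses, and SERPINE2 the least, with r = -0.38, and 0.09 without the high doses.

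**Figure D5:**
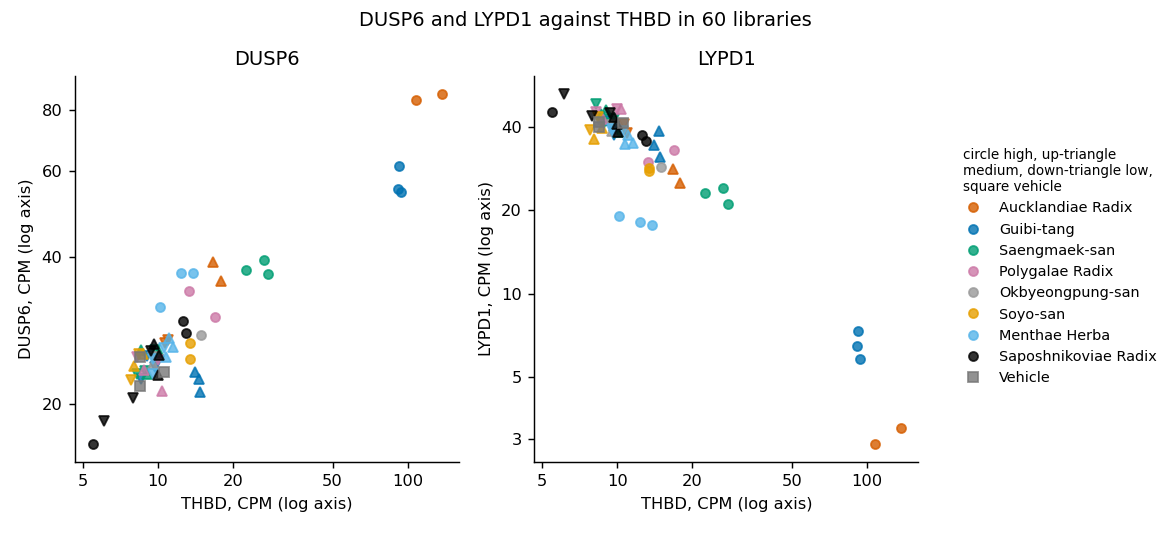
DUSP6 (left) and LYPD1 (right) against THBD, all in TMM-scaled CPM on log axes, 1 point per library and 60 libraries; colours are extracts and shapes doses. The Aucklandiae Radix and Guibi-tang high libraries stand apart, with mean DUSP6 of 85.3 and 57.1 CPM and mean LYPD1 of 3.07 and 6.54 CPM.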

How the data were processed

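Directional messenger RNA libraries were sequenced as paired ends on an MGI instrument, per the labels' protocols. The authors deposited expected counts per gene, not normalized, and the submitters' processing notes name RSEM 1.3.3, STAR 2.7.3a, Trim Galore 0.6.5, FastQC 0.11.9 and the build GRCh38, with no role or order. The annotation release, filters and strand setting are not given in the sources used here, and without the strand setting antisense reads cannot be told apart. Symbols were given for 56558 of 60675 identifiers (93.2%).

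The expected counts, rounded to whole numbers, were analysed in R 4.3.3 with the quasi-likelihood test of edgeR 4.0.16: filterByExpr (minimum count 10, minimum total 15), TMM scaling, and 1 model of 60 libraries with 25 group means (35 residual degrees of freedom). The 24 comparisons were high against vehicle, high against low and medium against low for 7 extracts, and 3 differences between extracts that share a library-name set, two-sided. P-values were adjusted by the Benjamini-Hochberg method over 18578 genes. Levels are CPM after TMM scaling, with SDs taken over libraries, likeness used log2 CPM with a prior count of 2, and the length slope used 10340 genes, with libraries below -0.15 called length-tilted. Depth limits low genes most, since the smallest library held 19031094 counts. Replicates differed beyond sampling noise (chi-square over degrees of freedom 3.02 to 380), so none was counted as a copy.

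The 9 genes and all lists were chosen with earlier results of these data known. Named were all 9 genes, the 4 called list genes with the largest change at each high dose, F2R, KLF2 and KLF4, and the 5 most and 3 least THBD-like genes. One further gene of the rule is not reported here. Replicates were read as paired only for Guibi-tang medium against low, and no paired test was run. Of the comparisons with 3 same-numbered pairs, only there did all 3 correlations of deviations pass 0.1. Comparisons with 2 pairs were not read as paired, though 4 of them passed it (0.11 to 0.219). Alternatives were RLE size factors, DESeq2 1.42.0, no filter, a replicate block, and the length slope as covariate. Others were no length-tilted libraries, the compared groups alone, and each library left out. For levels at the high doses and in vehicle, CPM without scaling was also taken.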

Additional observations from a re-analysis of the deposited data

Results flagged for a closer look

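The change from low to high dose differed between extracts of 1 library-name set for 19 of 24 gene and pair combinations over 3 pairs. The test was the interaction term of the edgeR model with Benjamini-Hochberg adjustment over all genes. Of all genes, 19.4% were called lower and 16.0% higher for Polygalae Radix minus Aucklandiae Radix. These shares were 7.61% and 4.43% for Menthae Herba minus Saposhnikoviae Radix, and 21.0% and 15.5% for Guibi-tang minus Saengmaek-san. Polygalae Radix minus Aucklandiae Radix, whose doses differ, gave log2 differences of -1.64 for PROCR, -0.70 for F3, -0.46 for TFPI, -1.45 for TFPI2, -3.59 for PLAT, -0.77 for PLAU, -2.14 for PLAUR and -1.29 for SERPINE2. Menthae Herba minus Saposhnikoviae Radix gave -1.04 for F3, -0.50 for TFPI, -0.37 for PLAT and -0.90 for PLAU. Guibi-tang minus Saengmaek-san gave -0.79 for PROCR, -1.25 for F3, -0.83 for TFPI2, -0.99 for PLAT, -0.40 for PLAU, 0.44 for PLAUR and -1.02 for SERPINE2. Of the 19 calls, 11 held in every alternative fit.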

How the results depend on the processing

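A called gene was taken as unchanged if it kept its direction and call, and a count of calls if it stayed within 1.5 times. THBD values and CPM levels were taken as unchanged if they shifted by less than 1 SD of a group's libraries, and otherwise as moved. Of 2446 recomputed values, 2124 were unchanged, 171 were no longer called, 151 counts, THBD values or levels moved and 0 called values reversed. THBD at the high doses has no test and can change sign without entering that last count, as with Saposhnikoviae Radix against vehicle (-0.001 without its high replicate 3, 0.19 as reported) and Menthae Herba minus Saposhnikoviae Radix (-0.42 to 0.28, -0.14 as reported). Counts of called genes moved as follows. Without the filter they were 1 for Polygalae Radix medium against low (2 as reported), 1 for Saposhnikoviae Radix against vehicle (3), 1 for Saengmaek-san against low (2), 0 for Soyo-san against vehicle (1) and 2 for Menthae Herba minus Saposhnikoviae Radix (4). With the length slope as covariate they were 4 for Polygalae Radix medium against low, 5 for Aucklandiae Radix against low (3), 2, 1 and 3 for the medium doses of Aucklandiae Radix, Menthae Herba and Guibi-tang (0 each), 5 for Saengmaek-san against low, and 3 and 1 for Soyo-san against vehicle and low (1 and 0). Without the length-tilted libraries they were 5 for Aucklandiae Radix against low, 1, 1 and 2 for those medium doses, 5 for Saengmaek-san against low, and 3 and 1 for Soyo-san. With only the compared groups they were 1 for Polygalae Radix medium, 5 for Aucklandiae Radix against low, 3 for Menthae Herba against vehicle (6), 2 for Menthae Herba medium, 0 and 0 for Saposhnikoviae Radix against vehicle and low (3 and 1), 3 for Soyo-san against vehicle and 0 for Menthae Herba minus Saposhnikoviae Radix. DESeq2 gave 1 for Menthae Herba medium, 4 for Saengmaek-san against low and 2 for Guibi-tang medium, and RLE size factors 1 for Guibi-tang medium. The RLE scaling factor of a library differed from its TMM factor by at most 0.03 (log2), so RLE shares the shifts that TMM made between groups. TMM factors were 1.283 to 1.323 in Guibi-tang high and 1.175 and 1.272 in Polygalae Radix high libraries. Those of vehicle were 0.9314 to 0.9378. Levels and fold changes of these groups depend on that scaling, and no fit without it was run.

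Leaving out 1 library gave 1 to 2 calls for Polygalae Radix medium, 1 to 5 for Saposhnikoviae Radix against vehicle, 0 to 1 for its medium dose, 1 to 1 for Saengmaek-san against low and 0 to 1 for Soyo-san against vehicle; other counts stayed within 1.5 times. Arms left with 1 library borrow their spread from the other groups. The replicate block, a shift per number shared by all 60 libraries, gave 1 call for Guibi-tang medium against low (0 without it). Numbers pair in that comparison, but the block does not model the pairing. Elsewhere samples share only a number, and the block left F3 (Polygalae Radix against vehicle, adjusted p = 0.0605) and PLAUR (Guibi-tang minus Saengmaek-san, 0.0522) uncalled and called PLAU (Polygalae Radix against low, 0.0477). The causes were not tested. Groups of 2 or 3 libraries limit all tests.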

Other observations

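Markers of leukocytes were low. Their 9 listed genes summed to 2.79 to 14.1 CPM at the high doses and 14.7 to 15.7 CPM in vehicle, mostly PTPRC, at 10.4 CPM in vehicle. The platelet marker GP9 and the hepatocyte marker TTR were at 0 in all 60 libraries. Neuron markers summed to 22.8 to 53.1 CPM at the high doses and 54.0 to 56.5 CPM in vehicle, and hepatocyte markers to 0.945 to 9.26 CPM and 6.61 to 7.30 CPM. Epithelium markers summed to 3.16 to 8.25 CPM at the high doses and 2.76 to 3.26 CPM in vehicle, and platelet markers to 0.304 to 1.57 CPM and 0.325 to 0.662 CPM. Markers of astrocytes and glioma summed to 1690 to 9260 CPM and 8470 to 8660 CPM. The part of these markers in the results was not tested.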
